A study of Mus musculus with 17 samples.

Results

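The genes described here are 34 genes of cholesterol and fatty acid synthesis, chosen as a list by name from the 23284 genes of a single-cell count table of the mouse hypothalamus. All 34 names were found in that table, and 33 of them had at least 1 transcript count. Hmgcs1, the enzyme that makes HMG-CoA, was listed at 0 in every cell and is given no value. Of 6 blood genes looked at, 4 had no count either. Whether the counting lost these genes was not tested, so the 0 does not show that Hmgcs1 is not expressed. The other 33 were counted by Drop-seq, a droplet method in which every captured polyA transcript receives a barcode of its cell and a random tag of its own (a unique molecular identifier, UMI), so that a UMI count is a count of captured molecules. The tissue was the hypothalamus of B6D2F1 mice, the hybrid offspring of C57BL6 mothers and DBA2 fathers. 5 mice were fed normally and 3 were deprived of food for 24 hours. The labels give no age or sex of the mice and name no other allele or agent. The study profiled the diversity of hypothalamic cells and compared these feeding states.

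Cholesterol and fatty acids are both built from acetyl-CoA. The mevalonate arm joins acetyl-CoA units into isoprenoids, the sterol arm turns squalene into lanosterol and then cholesterol, and fatty acid synthase, the elongases and the desaturases make the fatty acids of membranes. The brain makes its own cholesterol, because plasma lipoproteins hardly cross the blood-brain barrier, and oligodendrocytes need large amounts of cholesterol and galactolipid for myelin. The sterol regulatory element binding proteins encoded by Srebf1 and Srebf2 switch these genes on when sterols are low, and astrocytes are known to supply lipids to neurons.

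Cell classes were taken from the cluster names the authors deposited, with numbered clusters of a stem merged. Their markers went with the names: 8 myelin genes summed to 121000 ± 11790 CPM (UMIs per 1000000 UMIs of the class in a mouse, mean ± SD, n = 8 mice) in MO and 619 ± 287 in neurons (n = 7), and 5 astrocyte genes to 11520 ± 1767 in Astro (n = 6). IMO carried 6 genes of newly formed oligodendrocytes at 10310 ± 395 CPM (n = 5), together with the myelin genes at 44460 ± 5977. OPC stands for oligodendrocyte precursors, Tany for tanycytes, Ependy for ependymal cells, Epith for endothelial cells, Micro and Macro for microglia and macrophages, and GABA and Glu for inhibitory and excitatory neurons. The 8 mice gave 290861 to 12570644 UMIs in 129 to 3639 cells, and the 5 batches overlap between the feeding states only in batches 1 and 2. The 17 libraries are of 2 kinds, 8 with Gapdh at 151 to 811 CPM and 9 with Gapdh at 4.36 to 8.53 CPM. Only the high kind was made from normal replicates 1, 2 and 5 and from food-deprived replicate 3, and only the low kind from normal replicate 3. Fewer transcripts per cell and fewer cells of a type cannot be told apart where all cells of a mouse are summed.

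Promoter windows from 250 bases before to 50 bases after the gene start were found for 27 of the 34 genes in RefSeq (build GRCm38.p6). The CCAAT box, read as CCAAT on either strand with overlaps to other motifs allowed, is a site bound by NF-Y, a factor known to act beside the sterol regulatory element binding proteins. It stood in the windows of 21 of the 27 genes (77.8%), against 41.1% of 27025 genes with such windows. In the mevalonate and sterol arms 12 of 13 genes held it, Acat2 being the exception, and among the other genes 9 of 14. The sterol regulatory element letters TCACNCCAC stood in 1 window, that of Hmgcs1, against 1.44% of all genes. The windows printed next are those of Mvk and Fasn, the genes of the list with 5 and 3 CCAAT boxes that stand for the sterol and the fatty acid branch, and of Elovl6 and Ugt8a, which hold none and on which the food deprivation results turn. They are read 5′ to 3′ on the gene's strand, with CCAAT or its reverse complement ATTGG in capitals. Mvk lies at chr5:114444019-114444318 (+), Fasn at chr11:120824498-120824797 (-), Elovl6 at chr3:129532136-129532435 (+) and Ugt8a at chr3:125938603-125938902 (-).
Mvk: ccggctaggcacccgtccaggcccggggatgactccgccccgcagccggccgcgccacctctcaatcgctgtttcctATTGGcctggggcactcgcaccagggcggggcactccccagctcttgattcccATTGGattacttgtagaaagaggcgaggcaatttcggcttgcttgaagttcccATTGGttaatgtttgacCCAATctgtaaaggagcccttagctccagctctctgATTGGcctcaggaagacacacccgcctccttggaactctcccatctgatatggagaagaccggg
Fasn: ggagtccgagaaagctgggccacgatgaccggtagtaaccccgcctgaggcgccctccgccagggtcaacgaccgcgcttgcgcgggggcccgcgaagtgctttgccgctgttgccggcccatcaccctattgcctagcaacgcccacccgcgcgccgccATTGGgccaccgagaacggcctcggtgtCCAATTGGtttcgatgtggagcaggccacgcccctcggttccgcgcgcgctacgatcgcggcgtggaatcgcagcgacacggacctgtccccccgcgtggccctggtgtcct
Elovl6: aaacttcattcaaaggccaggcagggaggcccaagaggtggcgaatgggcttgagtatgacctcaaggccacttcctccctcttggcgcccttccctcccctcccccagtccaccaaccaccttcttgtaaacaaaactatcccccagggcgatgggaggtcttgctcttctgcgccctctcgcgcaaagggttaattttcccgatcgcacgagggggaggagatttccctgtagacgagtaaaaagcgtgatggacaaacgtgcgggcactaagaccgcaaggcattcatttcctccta
Ugt8a: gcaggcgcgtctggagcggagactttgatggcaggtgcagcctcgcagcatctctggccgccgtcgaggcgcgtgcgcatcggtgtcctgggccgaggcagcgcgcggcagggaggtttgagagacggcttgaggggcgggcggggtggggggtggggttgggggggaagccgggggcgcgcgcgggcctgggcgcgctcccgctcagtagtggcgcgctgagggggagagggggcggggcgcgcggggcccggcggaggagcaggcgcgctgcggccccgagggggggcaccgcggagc

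The levels of the genes by class are a description without a test, because the deposited clusters were made from the genes of the same cells. Over 11 classes, 10 genes had their highest mean in Astro, 10 in IMO and 8 in MO, and the other 5 led in Epith, Glu, Micro, OPC and Tany. Some leads were near ties, such as Dhcr7 at 1.004, Pmvk at 1.013, Fdps at 1.033 and Fdft1 at 1.051 times the second class. The class means rest on unlike mice, 8 in MO and 5 in IMO. Fdps and Fdft1 changed their leading class without normal replicate 1 and without normal replicate 2. How all other genes divide over the classes was not counted, so these counts do not set the list apart. The branches led only in part in different classes. Of the 15 mevalonate and sterol arm genes with counts, 9 led in IMO and 4 in MO, Tm7sf2 in Astro and Pmvk in Glu. Acss2, Me1, Acaca and Fasn led in Astro. Of the other fatty acid genes, Elovl5, Scd1, Fads1 and Fads2 led in Astro, Elovl1, Elovl7 and Scd2 in MO, Elovl6 in OPC and Acly in Micro. The summed level of the 33 genes was 8752 ± 1102 CPM in MO, 6038 ± 814 in Astro, 5503 ± 825 in IMO, 3395 ± 328 in OPC and 1469 ± 235 in neurons. Scd2 alone gave 49.6% of these UMIs in MO and 52.4% in Astro, but 17.8% in neurons. Without Scd2 the sum was 4393 ± 725 CPM in MO, 3753 ± 537 in IMO and 2868 ± 389 in Astro, a gap between MO and IMO that is inside the SD of MO but not that of IMO.

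**Figure D1:**
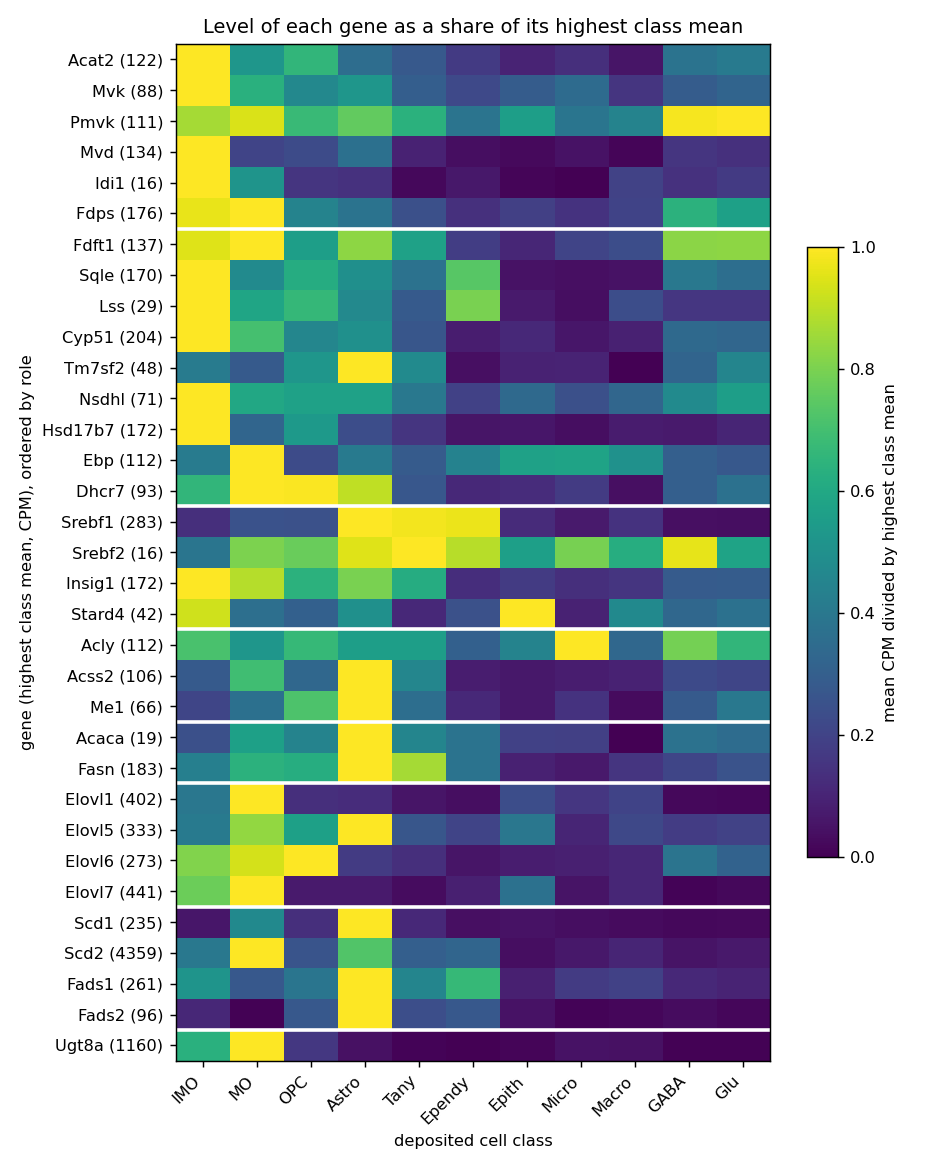
Mean CPM over mice of each gene (rows, by role, with the highest class mean in brackets) in 11 deposited classes (columns), divided by the gene's highest class mean. Of the 9 sterol arm genes 5 are brightest in IMO, 3 in MO and 1 in Astro; Scd1, Fads1, Fads2 and Srebf1 are brightest in Astro, and Elovl1, Elovl7, Scd2 and Ugt8a in MO.

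In the mevalonate arm, Mvd, which decarboxylates mevalonate diphosphate, was the gene most set apart in IMO. Its level there was 134 ± 42.5 CPM (n = 5), and the next class, Astro, had 49.6 ± 20.9 (n = 6). Acat2, the cytosolic thiolase that starts the pathway, had 122 ± 67.2 CPM in IMO, 80.0 ± 29.4 in OPC and 63.9 ± 26.1 in MO, so neighbours in this order lay within their spread. Within the 5 mice that gave both classes, IMO lay above MO in 5 of 5 mice for Acat2 and Mvd and in 4 of 5 for Mvk. Mvk, the mevalonate kinase, had 88.2 ± 29.0 CPM in IMO and 56.0 ± 17.7 in MO.

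Pmvk and Fdps departed from that order. Pmvk, the next kinase, was as high in neurons as in oligodendrocytes, with 111 ± 13.3 CPM in Glu, 110 ± 25.2 in GABA and 105 ± 21.5 in MO, and it was lowest in Ependy at 42.6 ± 12.9. Fdps, which makes farnesyl diphosphate, had 176 ± 75.2 CPM in MO and 170.3 ± 49.9 in IMO, a difference inside both SDs. Idi1, the isopentenyl diphosphate isomerase, had 15.9 ± 18.3 CPM in IMO and 8.20 ± 12.9 in MO. Its level followed the kind of library: in the 3 mice that have both kinds it was 2.96 to 9.48 times higher in the libraries with high Gapdh, at 0.679 to 8.86 CPM over all cells. Whether this part of the order of classes comes from the libraries was not tested.

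In the sterol arm 5 of 9 genes led in IMO. Cyp51, the lanosterol demethylase, had 204 ± 66.8 CPM in IMO, 144 ± 53.5 in MO, 103 ± 37.7 in Astro and 68.9 ± 9.10 in neurons. Hsd17b7, a reductase of the demethylation steps that follow, had 172 ± 84.4 CPM in IMO, 92.2 ± 29.1 in OPC and 14.7 ± 3.35 in neurons. Both lay above MO in 5 of 5 mice in IMO, as did Sqle, the squalene epoxidase, and Nsdhl.

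Sqle and Lss also stood high in one class outside the oligodendrocyte lineage. Sqle had 170.4 ± 37.0 CPM in IMO and 126 ± 29.2 in Ependy, where most of the sterol arm was low. Lss, which closes squalene epoxide into lanosterol, had 29.0 ± 27.7 CPM in IMO and 23.2 ± 5.42 in Ependy. For comparison, Cyp51 in Ependy had 16.2 ± 8.40 CPM.

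The other genes of the arm led outside IMO: Ebp, Dhcr7 and Fdft1 in MO, and Tm7sf2 in Astro. Ebp, a sterol isomerase, had 112 ± 23.8 CPM in MO, 46.8 ± 21.5 in IMO and 25.7 ± 11.1 in OPC, and MO lay above IMO in 5 of 5 mice. Dhcr7, which reduces the last double bond to give cholesterol, had 92.7 ± 22.2 CPM in MO, 92.4 ± 13 in OPC and 83.8 ± 33.2 in Astro, which do not differ beyond their spread, and it too was higher in MO than in IMO in 5 of 5 mice. Tm7sf2, a sterol reductase, had 47.8 ± 19.1 CPM in Astro against 13.5 ± 5.77 in MO and 25.1 ± 6.35 in OPC. Fdft1, the squalene synthase, had 137 ± 56.7 CPM in MO, 130.4 ± 41.9 in IMO, 114 ± 24.8 in Astro and 120.5 ± 55.1 in neurons, with no separation among them.

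Among the regulators, Srebf1 was high in 3 classes of glia and low in all others. Its level was 283 ± 68.2 CPM in Astro, 277.5 ± 28.4 in Tany and 275 ± 56.2 in Ependy, which overlapped. MO had 71.8 ± 23.6 CPM, OPC 70.6 ± 33.9, IMO 38.4 ± 28.2 and neurons 11.5 ± 7.70, and Astro lay above MO and above neurons in 6 of 6 mice. Srebf2, the factor of the sterol genes, was low everywhere, from 6.34 ± 8.68 CPM in IMO to 16.3 ± 8.62 in Tany, and its classes were not told apart. Insig1, which holds these factors in the endoplasmic reticulum when sterols are plentiful, had 172 ± 66.8 CPM in IMO, 153 ± 34.0 in MO, 138 ± 33.0 in Astro and 50.6 ± 10.7 in neurons. Stard4, a carrier of cholesterol between membranes, had 41.8 ± 24.6 CPM in Epith and 38.8 ± 20.8 in IMO.

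The enzymes that supply acetyl-CoA led in different classes. Acss2, which makes acetyl-CoA from acetate, had 106 ± 33.2 CPM in Astro, 73.7 ± 14.4 in MO and 24.0 ± 7.02 in neurons. Acly, which makes it from citrate, had 112 ± 15.6 CPM in Micro, 88.6 ± 19.8 in GABA and 62.9 ± 25.2 in Astro, and it lay below the neurons in 5 of 6 mice in Astro. Me1, the malic enzyme that gives NADPH, had 65.6 ± 28.4 CPM in Astro and 24.2 ± 11.4 in MO.

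Fatty acid synthesis itself was highest in Astro and Tany. Fasn, the fatty acid synthase, had 183 ± 44.8 CPM in Astro, 158.5 ± 60.7 in Tany, 118 ± 31.2 in MO, 114 ± 41.6 in OPC and 42.2 ± 12.7 in neurons. Astro lay above MO in 6 of 6 mice and above Tany in 4 of 6. Acaca, the acetyl-CoA carboxylase, had 19.5 ± 10.4 CPM in Astro and 11.1 ± 9.59 in MO, within their spread.

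**Figure D2:**
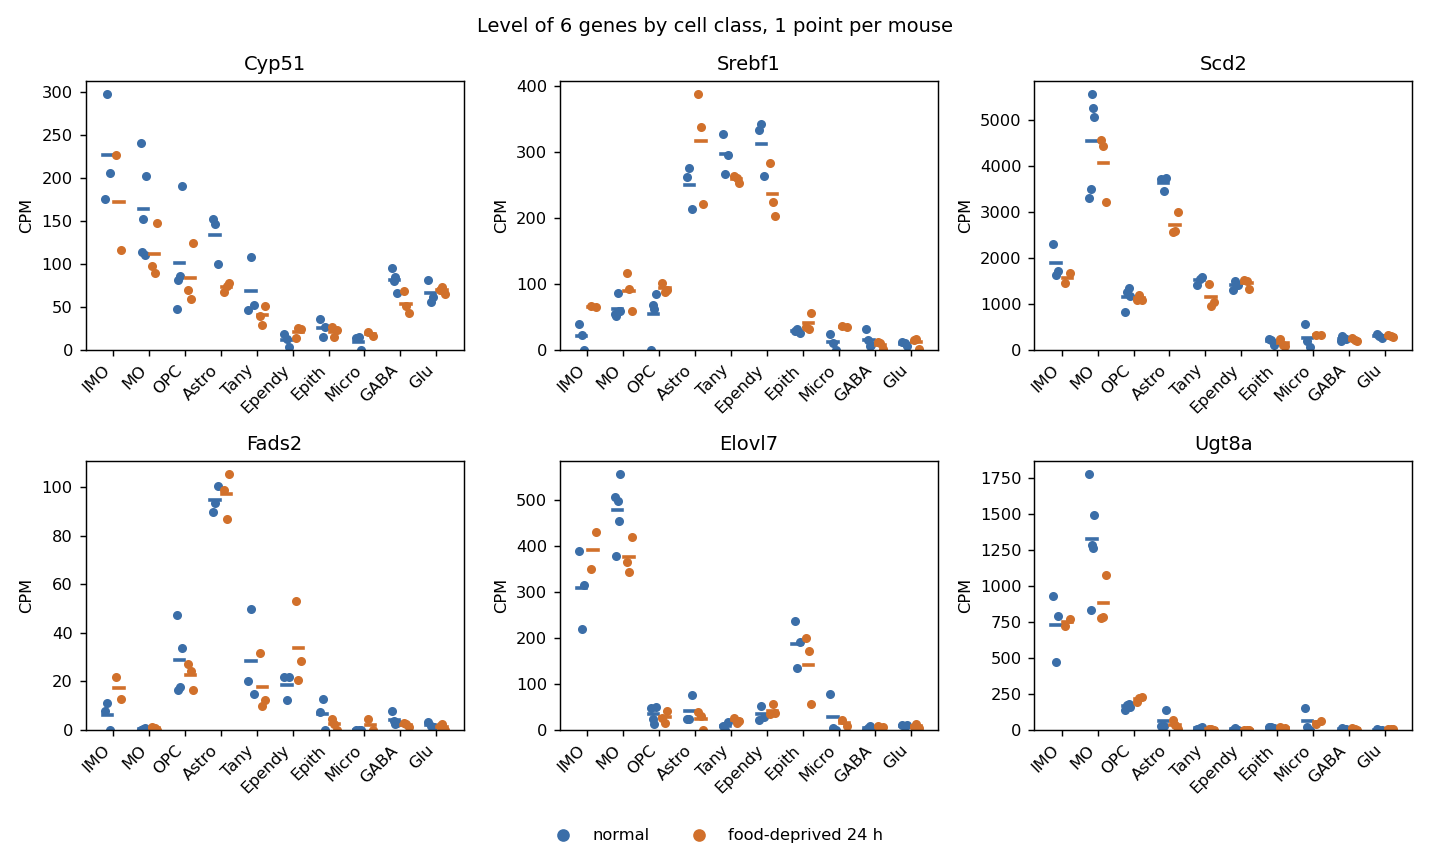
CPM of 6 genes (vertical axes, each from 0) in 10 classes, 1 point per mouse, with normal mice in blue, food-deprived mice in orange and bars at group means. Fads2 is near 0 in MO in all 8 mice, and every mouse of Astro, Tany and Ependy lies above every mouse of the other classes for Srebf1.

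Of the elongases, Elovl1 and Elovl7 led in MO, Elovl6 in OPC and Elovl5 in Astro. Elovl7 had 441 ± 76.4 CPM in MO, 342 ± 80.4 in IMO, 165 ± 63.3 in Epith and 7.06 ± 1.56 in neurons. Elovl1, which extends saturated chains to very long ones, had 402 ± 93.1 CPM in MO, 159 ± 74.0 in IMO, 95.6 ± 21.6 in Epith and 54.5 ± 13.9 in OPC. Epith was the class outside the lineage in which both were highest. Elovl6, which extends palmitate to stearate, was as high in OPC (273 ± 65.3 CPM) as in MO (256 ± 76.0) and IMO (222 ± 75.9), and had 48.0 ± 15.3 in Astro and 100.6 ± 26.0 in neurons. Elovl5, which extends polyunsaturated chains, had 333 ± 79.9 CPM in Astro and 279 ± 66.5 in MO, with Astro above MO in 3 of 6 mice.

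Among the desaturases, Scd2 and Scd1, which place the first double bond in saturated chains, were ordered oppositely in MO and Astro. Scd2 had 4359 ± 927 CPM in MO, 3170 ± 534 in Astro, 1750 ± 325 in IMO, 1134 ± 166 in OPC and 254 ± 46.1 in neurons, and MO lay above Astro in 6 of 6 mice. Scd1 had 235 ± 87.9 CPM in Astro and 112 ± 44.4 in MO, and Astro lay higher in 5 of 6. The 2 genes are close in sequence, and how reads shared between them were counted is not given in the sources used here.

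Fads1 and Fads2, which desaturate polyunsaturated chains, both led in Astro. Fads2 had 95.7 ± 6.96 CPM in Astro, 26.3 ± 14.0 in Ependy and 26.2 ± 11.3 in OPC. In MO it had 8 UMIs over 8 mice, a mean of 0.451 ± 0.536 CPM, the lowest of the 11 classes. IMO, at 10.8 ± 7.96 CPM, lay above MO in 4 of 5 mice. Fads1 had 261 ± 101 CPM in Astro, 174 ± 63.3 in Ependy, 135 ± 38.5 in IMO and 71.5 ± 32.4 in MO, and Astro lay above MO in 6 of 6 mice.

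Ugt8a, which makes the galactosylceramide of myelin, was ordered along the lineage, at 187 ± 33.1 CPM in OPC, 738 ± 166 in IMO and 1160 ± 362 in MO, with MO above IMO in 5 of 5 mice. Neurons had 5.55 ± 3.63 CPM and Ependy 3.52 ± 4.50. Astro had 50.9 ± 46.9 CPM, and this value moved with the myelin genes in the same cells: normal replicate 5 had Ugt8a at 138 CPM with the 8 myelin genes at 16700 CPM, and food-deprived replicate 3 had 5.54 CPM with 1263 CPM. The part of free or attached oligodendrocyte RNA in it was not tested. Over the 11 class means of 11884 genes, the genes most like Ugt8a by Spearman correlation were 1700047M11Rik and Fa2h (both 0.964), then Slc25a13 and Taldo1 (both 0.955). In the list itself Elovl1 (0.845) and Mvk (0.673) were most like it, and Fads2 was least (-0.28). These correlations share libraries and depth and are descriptions of 11 points.

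Among neurons, 1 excitatory cluster led for many of the genes. Over 15 neuronal clusters with at least 10 cells in 2 or more mice, Glu4 (127 cells, n = 4 mice) had the highest mean of 12 of the 33 genes. The share of all genes that lead in Glu4 was not counted. In Glu4, Cyp51 had 117 ± 23.0 CPM, Hsd17b7 61.8 ± 22.1 and Scd2 452 ± 60.6, against medians over the 15 clusters of 49.7, 9.46 and 229 CPM. GABA15 (100 cells, n = 4) led for Fdps at 162 ± 160 CPM and Fdft1 at 175 ± 110, where the spread between mice was as large as the differences. GABA16 (38 cells, n = 2) had Acly at 227 ± 26.1 CPM, above the cluster median of 67.2. Between the main kinds, Scd2 was higher in Glu than in GABA in 6 of 6 mice, at 296 against 239 CPM, and Fasn in 6 of 6, at 46.9 against 31.6 CPM.

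Food deprivation was compared with normal feeding on UMI sums per mouse in 12 sets of cells (11 kinds of cells and all cells together). No gene of the list, and no gene at all (0.0% of those tested in each set), passed an adjusted p of 0.05 in the edgeR quasi-likelihood fit with feeding state alone. DESeq2 called 0 genes of the list as well. At an unadjusted p under 0.05 edgeR had 7 of 31 genes of the list in MO, where 3.95% of all genes lay under it, 4 of 27 in Astro (3.14% of all genes), 4 of 19 in Tany (3.07%), 2 of 21 in IMO (4.64%), 1 of 31 in OPC (3.14%) and 1 of 31 in neurons (2.12%). With batch as a block, which leaves the contrast to the 4 mice of batches 1 and 2, 1 gene of the list was called in MO, where 0.201% of all genes were called, and none in the other sets. That gene was Elovl6.

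Fitted ratios lay mostly below 0 in MO, IMO, OPC, Astro, Tany, Ependy and GABA and were balanced around 0 in all neurons pooled. In MO 24 of the 31 tested genes had a ratio under 0, against 50.6% of all genes, with a median log2 ratio of -0.13. In Astro 22 of 27 did, against 50.3%, with a median of -0.26. OPC had 21 of 31 against 49.9% (median -0.12), Tany 15 of 19 against 49.3% (median -0.24) and IMO 15 of 21 against 50.4% (median -0.39). Neurons had 15 of 31 against 5464 of 10923 genes (50%), with a median of 0.00. Split by kind, GABA had 18 of 26 under 0 against 50.8% (median -0.18) and Glu 10 of 23 against 49.6% (median 0.07). The neuronal values turned with the fit: with the batch block 9 of 31 genes were under 0 in neurons (median 0.11) and 13 of 26 in GABA (median 0.01), and without food-deprived replicate 1 it was 21 of 29 in neurons (median -0.18) and 13 of 23 in Glu (median -0.05). Epith had 10 of 17 against 50.9% (median -0.04), Ependy 6 of 9 against 50.2% (median -0.14) and Micro 4 of 9 against 48.3% (median 0.13). The median in OPC was -0.04 without normal replicate 3, and -0.08 and 0.045 within batches 1 and 2. Within batches the direction was less uniform: in MO 14 of 31 genes were lower in both batches 1 and 2, 7 higher in both and 10 opposite, and in Astro 16 of 27 were lower in both, 3 higher in both and 8 opposite. The median log2 ratio of all genes tested was -0.0046 in MO and -0.0033 in Astro.

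**Figure D3:**
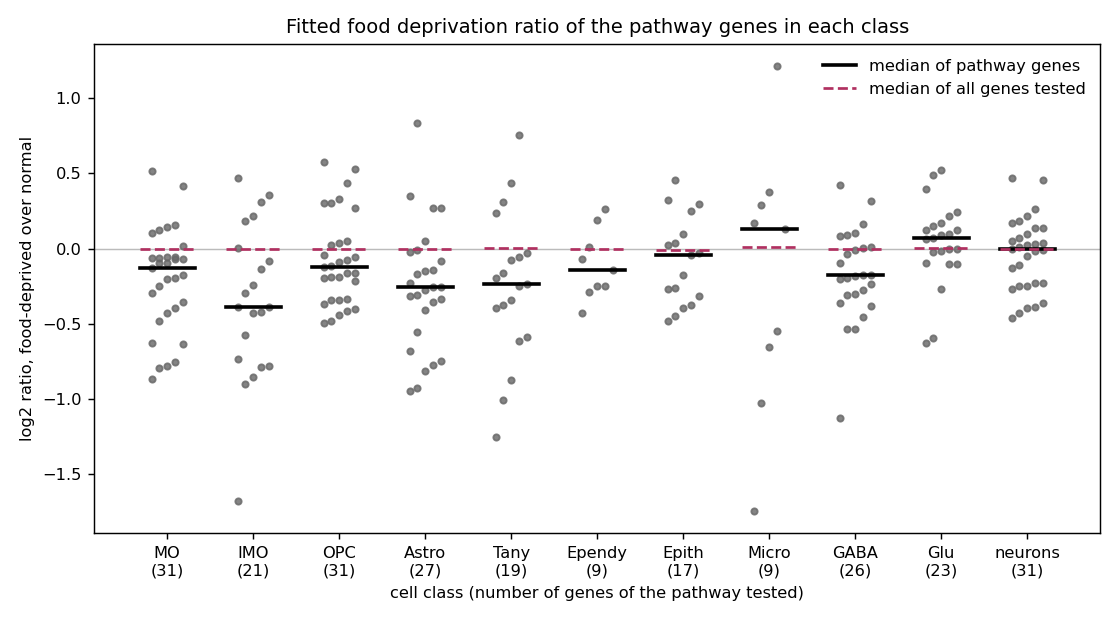
Fitted log2 ratio of food-deprived over normal mice (vertical axis) for each tested gene of the list (grey points) in 11 kinds of cells, with the number tested in brackets. Black bars, the medians of the list, lie below the dashed medians of all genes in MO, IMO, OPC, Astro, Tany, Ependy, Epith and GABA. They lie above them in Glu and Micro and at 0 in neurons. No point passed the adjusted threshold.

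In MO, Elovl6 had 347, 252, 288, 267 and 337 CPM in normal replicates 1 to 5, and 154.5, 137 and 265.5 CPM in food-deprived replicates 1 to 3. The first and second food-deprived mice lay below all normal mice, and the third lay between normal replicates 2 and 4, so the groups overlapped. The log2 ratio was -0.79 ± 0.24 (SE; edgeR adjusted p = 0.79), and with the batch block -0.95 ± 0.16 (edgeR adjusted p = 0.0291). Within batch 1 it was -0.90 and within batch 2 -0.96. The call with the block has 2 residual degrees of freedom. It rests on the 4 mice of batches 1 and 2 (normal replicates 3 and 4, food-deprived replicates 1 and 2). Without any 1 of them the ratio was -0.98 to -0.91. Such a fit leaves the contrast to 1 mouse of each state, too few to show whether the call depends on a single mouse. With batches 1 and 2 alone and the block, Elovl6 (edgeR adjusted p = 0.000726) and Ugt8a (edgeR adjusted p = 0.00467) were called, where 0.737% of all genes were, in a fit of 4 mice with 1 residual degree of freedom. The same pair was called with the libraries of low Gapdh alone and the block, on the same 4 mice, where 0.399% of all genes were. In the 61 MO cells of food-deprived replicate 3, the 2 blood genes with UMIs summed to 7257 CPM (0 to 1904 in normal mice). The 4 neuronal markers summed to 288 CPM (13.4 to 174), and the 6 markers of newly formed oligodendrocytes to 332 (200 to 240). Each sum was the highest of the 8 mice. The 5 astrocyte markers, at 95.9 CPM, lay inside the normal range of 26.7 to 101. Their part in the MO values was not tested.

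Ugt8a in MO had 1777, 832, 1287, 1261 and 1491 CPM in the normal mice and 777, 782.5 and 1077 CPM in the food-deprived mice. Food-deprived replicates 1 and 2 were the lowest of the 8 mice, normal replicate 2 lay just above them, and the groups overlapped. The log2 ratio was -0.62 ± 0.23 (edgeR adjusted p = 1), -0.73 ± 0.23 with the block (edgeR adjusted p = 0.414), and -0.73 and -0.69 within batches 1 and 2. With the block and without any 1 of those 4 mice it was -0.75 to -0.70. The 8 myelin genes in MO summed to 114000 to 137900 CPM in the normal mice and to 102200 to 122600 in the food-deprived mice, also lower at both ends with overlap, and their part in the values of Ugt8a was not tested.

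Fdft1 was the 1 gene of the list in MO whose groups did not overlap, where 1.22% of all genes had every food-deprived mouse below every normal mouse. It had 227, 189, 136, 101 and 183 CPM in the normal mice and 95.8, 97.9 and 66.4 CPM in the food-deprived mice. The lowest normal mouse, replicate 4, was only just above food-deprived replicate 2. The log2 ratio was -0.78 ± 0.26 (edgeR adjusted p = 1), and within batches it was -0.51 in batch 1 and -0.04 in batch 2. With the block it was -0.31 ± 0.18, and with the block and without normal replicate 3 or food-deprived replicate 1 it was -0.06.

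Fdps in MO had 307, 227, 110.0, 156 and 241 CPM in the normal mice and 91.3, 120 and 155 CPM in the food-deprived mice. Of the mice with libraries of high Gapdh alone, normal replicates 1, 2 and 5 were the 3 highest of all. Food-deprived replicate 3, also with high Gapdh alone, had 155 CPM, just below normal replicate 4 at 156. The log2 ratio was -0.76 ± 0.31 (edgeR adjusted p = 1) and -0.35 ± 0.17 with the block. Over all cells Fdps was 0.992, 1.75 and 1.37 times as high in high-Gapdh as in low-Gapdh libraries of the same mouse, in normal replicate 4 and food-deprived replicates 1 and 2.

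Lss in MO had 26.7, 0, 19.8, 18.2 and 33.7 CPM in the normal mice and 15.0, 8.36 and 14.8 CPM in the food-deprived mice. Normal replicate 2, with 36 MO cells, had no UMI, and the other normal mice lay above all food-deprived mice. The log2 ratio was -0.86 ± 0.36 (edgeR adjusted p = 1). Srebf1 was the gene of the 6 with a ratio above 0: normal mice had 53.4, 50.4, 85.8, 59.4 and 58.0 CPM, and food-deprived mice 116, 92.4 and 59.0 CPM. Food-deprived replicates 1 and 2 were the highest and replicate 3 lay among the normal mice, and the log2 ratio was 0.52 ± 0.22 (edgeR adjusted p = 1).

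**Figure D4:**
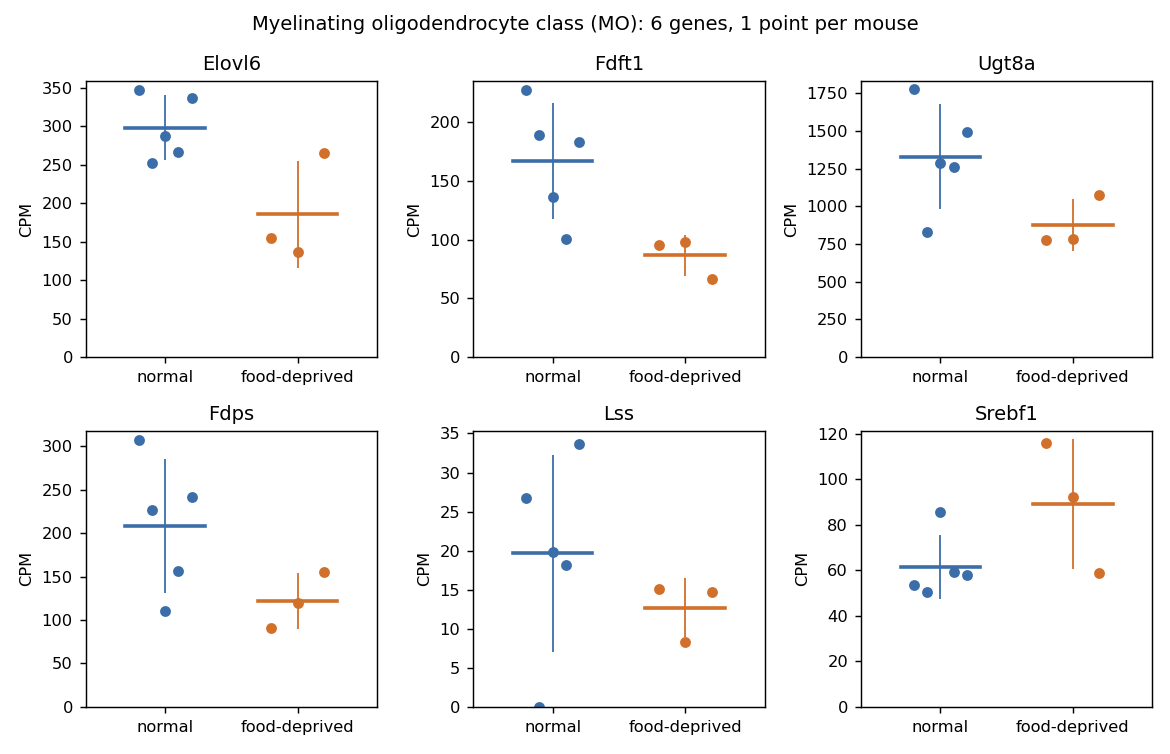
CPM in MO (vertical axes, each from 0) of the 6 genes of the list with the smallest unadjusted p, 1 point per mouse, with bars at group means and vertical lines of 1 SD (normal n = 5, food-deprived n = 3). The groups are apart for Fdft1, at 66.4 to 97.9 against 101 to 227 CPM, and overlap for the other 5.

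Outside MO, Elovl6 had every food-deprived mouse lowest in OPC, Tany, GABA and Glu, and the groups overlapped in IMO, Astro, Epith, Ependy and Micro. In OPC it had 307, 247, 308 and 387 CPM in normal replicates 2 to 5 and 195.5, 244 and 223 CPM in the food-deprived mice. These groups did not overlap, although normal replicate 3 and food-deprived replicate 2 nearly met. The log2 ratio in OPC was -0.48 ± 0.22 (edgeR adjusted p = 1.00) and the within-batch values were both -0.34.

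In neurons Elovl6 had 156, 107, 99.0 and 93.3 CPM in normal replicates 2 to 5 and 80.8, 84.1 and 84.7 CPM in the food-deprived mice. The groups were apart, and normal replicate 2, with 41 neurons, was far above the rest. The log2 ratio was -0.36 ± 0.18 (edgeR adjusted p = 1). Elovl6 and Elovl5 were the genes with every food-deprived mouse lowest in neurons, 2 of 31, where 1.66% of all genes were so placed, and in OPC, 2 of 31, where 1.90% were.

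Tanycytes gave Elovl6 at 37.7, 58.2 and 51.7 CPM in normal replicates 3 to 5 and 23.7, 26.1 and 26.7 CPM in the food-deprived mice, again without overlap. In Astro the same mice had 45.8, 76.0 and 37.6 CPM against 32.3, 51.8 and 44.3 CPM, which overlapped. Epith had 21.6 ± 7.98 CPM in the normal and 21.8 ± 10.7 in the food-deprived mice, and Ependy 15.5 ± 5.43 and 14.7 ± 14.2. In IMO the log2 ratio was -1.44 within batch 1 and 0.26 within batch 2. The means of Epith and of Ependy lay inside the SDs of both feeding states. Summed over all cells, Elovl6 had 144, 169, 136, 156 and 130.5 CPM in the normal mice and 95.0, 103 and 80.6 CPM in the food-deprived mice, with no overlap. That sum also moves with the share of oligodendrocytes: the myelin genes over all cells were at 4991 CPM in food-deprived replicate 3 and at 14370 to 37610 CPM in the other 7 mice. The response of Elovl6 in MO did not pass the threshold for a difference from that in neurons (log2 difference -0.48 ± 0.25, edgeR adjusted p = 1) or in Astro (-0.54 ± 0.40, edgeR adjusted p = 1.00).

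In Astro, 7 of the 27 tested genes had every food-deprived mouse below every normal mouse, where 4.51% of all genes had. They were Mvk, Cyp51, Tm7sf2 and Dhcr7 of sterol synthesis, Acss2, Fasn and Scd2, and none had every food-deprived mouse higher. None passed the adjusted threshold. Cyp51 had 152, 146 and 100.2 CPM in normal replicates 3 to 5 and 66.6, 73.9 and 77.6 CPM in the food-deprived mice, a log2 ratio of -0.93 ± 0.29 (edgeR adjusted p = 0.999). Mvk had 62.5, 58.5 and 62.6 CPM against 34.2, 27.7 and 33.2 CPM, and its log2 ratio was -0.95 ± 0.35 (edgeR adjusted p = 0.999) on 84 UMIs in all. Both lay about as far apart within batches: Cyp51 at -1.19 and -0.98, and Mvk at -0.87 and -1.08 in batches 1 and 2.

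Acss2 in Astro had 156, 134.5 and 100.2 CPM in the normal mice and 66.6, 85.0 and 94.2 CPM in the food-deprived mice, a log2 ratio of -0.75 ± 0.30 (edgeR adjusted p = 0.999). Scd2 had 3711, 3444 and 3731 CPM against 2560, 2589 and 2986 CPM, or means of 3629 ± 160 and 2712 ± 238, on 5954 UMIs. Fasn had 256, 216 and 175 CPM against 139, 155 and 155 CPM. Scd2 and Fasn are given for their high levels in Astro and for the lack of overlap, chosen after their values were seen. In Cyp51, Acss2 and Fasn the food-deprived mice lay closer together than the normal mice.

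Other markers in the same Astro sums differed between mice. The 8 myelin genes ranged from 2813 to 16700 CPM in the normal mice and from 1263 to 10510 in the food-deprived mice, and the 4 neuronal markers from 164 to 371 and from 268 to 864 CPM. The 5 astrocyte markers ranged from 9291 to 12670 and from 10810 to 14390 CPM. Their part in the Astro values was not tested.

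**Figure D5:**
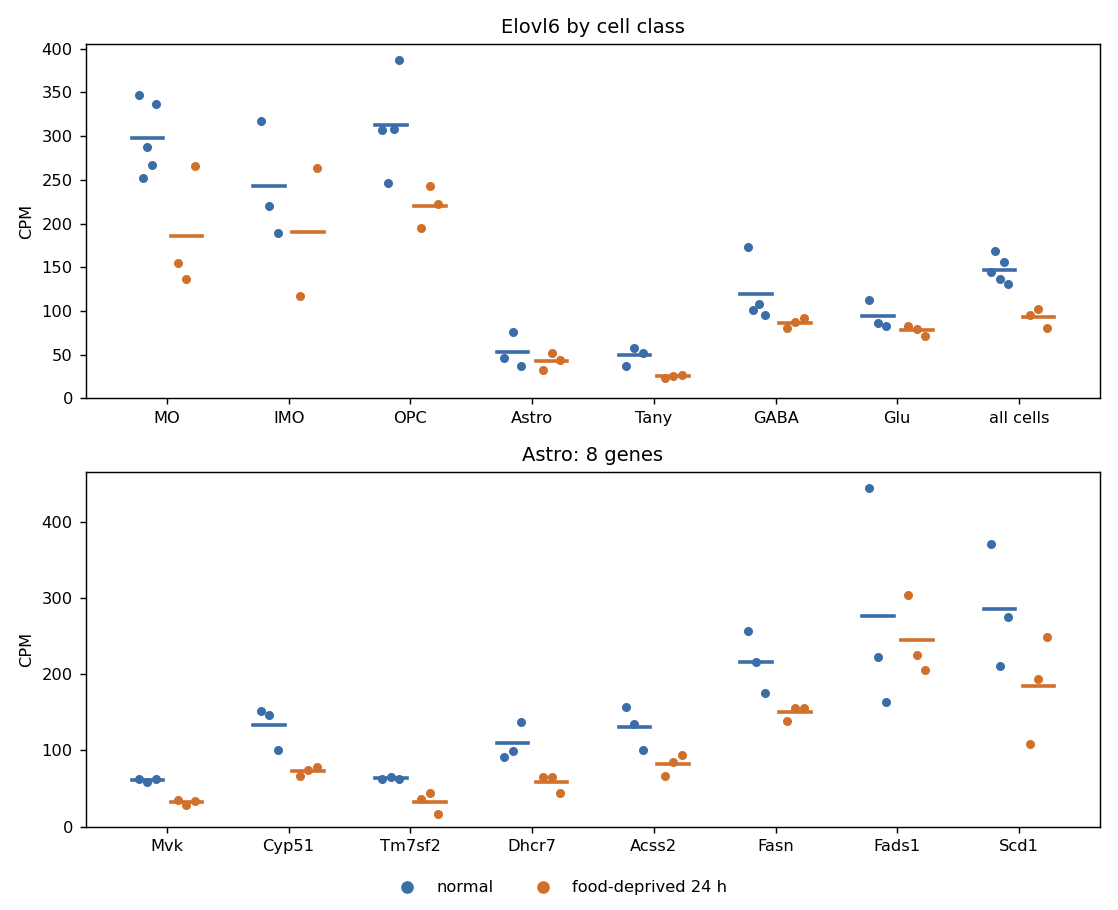
Upper panel, CPM of Elovl6 in 7 classes and in all cells, and lower panel, CPM of 8 genes in Astro, both from 0, with 1 point per mouse (normal in blue, food-deprived in orange) and bars at group means. Food-deprived mice lie lowest for Elovl6 in OPC, Tany, GABA, Glu and all cells, and for the first 6 genes in Astro; Fads1 and Scd1 overlap.

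In Tany, 5 of the 19 tested genes had every food-deprived mouse lowest (Tm7sf2, Srebf1, Acss2, Elovl5 and Elovl6), and none highest, where 4.75% of all genes were lowest. Acss2 had 69.5, 74.9 and 51.7 CPM in normal replicates 3 to 5 and 28.9, 35.8 and 30.8 CPM in the food-deprived mice, a log2 ratio of -1.0 ± 0.36 (edgeR adjusted p = 0.999). Tm7sf2 had 31.9, 33.3 and 33.2 CPM against 15.8, 6.51 and 16.4 CPM, on 40 UMIs. Elovl5 had 101, 116 and 107 CPM against 86.8, 55.4 and 65.8 CPM. The 5 markers of tanycytes in the same sums, all with UMIs, were at 2431 to 2755 CPM in the normal and 1810 to 2409 CPM in the food-deprived mice, also without overlap. The 8 myelin genes were at 599 to 3417 and 121 to 852 CPM, and the 4 neuronal markers at 108 to 140.2 and 114 to 544.5 CPM. Their part in the Tany values was not tested. Acss2 was lower in all food-deprived mice in Astro, Tany and Glu. In Glu 3 of 23 tested genes had every food-deprived mouse lowest (Acss2, Elovl5 and Elovl6), where 4.94% of all genes had. There 1 gene, Hsd17b7, had every food-deprived mouse highest (4.15% of all genes). The log2 ratios of Srebf1 pointed oppositely in MO and Tany, a difference that was not tested.

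IMO rested on 20 to 33 cells per mouse. Pmvk had 127, 143 and 126 CPM in normal replicates 3 to 5 and 51.2 and 32.2 CPM in food-deprived replicates 1 and 2, and the log2 ratio was -1.68 ± 0.49 (edgeR adjusted p = 0.952) on 49 UMIs. The groups did not overlap. In IMO 4 of 21 genes of the list had every food-deprived mouse lowest and none highest, where 9.72% of all genes were lowest and 10.5% highest. Hsd17b7 had 207, 132 and 300.1 CPM against 80.5 and 142 CPM, with overlap, and a log2 ratio within batches of -1.36 and 0.10. Without 1 mouse that ratio ran from -1.38 to -0.54. Markers in the same sums also separated the mice: the 6 markers of newly formed oligodendrocytes were at 10470 to 10680 CPM in the normal and 9689 to 10170 in the food-deprived mice. The 4 neuronal markers were at 22.0 to 79.5 and 146 to 161 CPM, and the 5 endothelial markers at 15.8 to 31.8 and 73.2 to 206 CPM, higher in both food-deprived mice. Their part in the IMO values was not tested.

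In neurons the smallest p was that of Elovl5, with 58.4, 76.2, 63.6 and 69.7 CPM in normal replicates 2 to 5 and 45.6, 56.2 and 52.2 CPM in the food-deprived mice. These groups did not overlap, and the log2 ratio was -0.43 ± 0.17 (edgeR adjusted p = 1). In OPC, 2 genes had every food-deprived mouse highest, where 2.90% of all genes had: Ugt8a, at 193, 226 and 231 CPM against 142, 174, 184 and 157 CPM, and Srebf1, at 101, 88.3 and 90.7 CPM against 0, 67.2, 62.3 and 84.2 CPM. For Ugt8a this order is opposite to that of the means in MO.

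The difference between classes in the response to food deprivation was tested with each mouse as a block. No gene of the list passed the adjusted threshold between MO and neurons (0 of 32, where 0.0434% of all genes did) or between MO and Astro (0 of 32, where 0.0238% did). At an unadjusted p under 0.05 there were 2 genes of the list in each (4.45% and 4.43% of all genes), Lss and Hsd17b7 for neurons and Acss2 and Mvk for Astro. The log2 difference of Mvk between MO and Astro was 0.90 ± 0.41 (edgeR adjusted p = 1.00), so that its ratio was less negative in MO.

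Genes next to these pathways did not pass the threshold either. Of 16 genes of sterol handling, 16 of fatty acid elongation and activation and 8 of sphingolipid and galactolipid synthesis, 12, 9 and 8 were tested in MO and none was called in any class, with or without the batch block. Their median log2 ratios in MO were 0.04, -0.05 and -0.04 without the block and -0.11, -0.08 and -0.13 with it. In Astro they were 0.10, 0.18 and -0.09 without and 0.17, 0.20 and 0.00 with the block.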

How the data were processed

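For each of 17 libraries the authors deposited UMI counts by gene and barcode without normalization, a merged count table of the annotated cells, and 1 cluster name per cell. The submitters' processing notes give the build mm9, and how reads were aligned and counted is not given in the sources used here. Batch, feeding state and barcode placed 14276 of the 14437 annotated cells in 1 library each, with 0 count values that differ from the merged table. For the other 161 cells the barcode occurs in more than 1 candidate library (225 such barcodes), and they were left out. No further filter on cells and no doublet caller was applied.

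The cells hold 46904254 UMIs, 1444 to 2389 for the median cell of a mouse. Counts were summed per mouse and class. A mouse entered a class with 20 or more cells (10 for a single cluster), and each group needed 2 mice. Levels are CPM on plain totals, with no scaling by gene length. The feeding states were compared in each class on its own with edgeR 4.0.16 in R 4.3.3 (quasi-likelihood F test, two-sided, TMM scaling, filterByExpr), and p-values were adjusted by Benjamini-Hochberg over all genes tested, with a threshold of 0.05. SE is the log2 ratio over the root of F. The labels give the number, feeding state and batch of each mouse but no age or sex, and p-values measure the spread between these mice. Batch and kind of library differ between the mice and are part of that spread in the fit without the block.

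The labels put normal replicate 3 with food-deprived replicate 1 in batch 1, and normal replicate 4 with food-deprived replicate 2 in batch 2. The other mice share no batch with the other state. Alternatives were DESeq2 1.42.0, other scaling, no filter on low counts, batch as a block, other cell minimums, 1 kind of library (divided at 50 CPM of Gapdh) and leaving out each mouse. The fits with feeding state alone were checked on counts simulated for MO, OPC and Astro. The simulated counts took the spread of each gene from the real counts but held no batch and no kind of library. The shares called are therefore only a rough guide to these data. A log2 change of 1 was called in 55%, 45% and 13% of 100 changed genes, and a change of 2 in 100%, 92% and 78%. False calls numbered 15, 10 and 3. The absence of calls thus does not show the absence of changes of log2 1, least of all in Astro. Named were every gene by role, the 6 of smallest p in MO, up to 3 with p under 0.05 in IMO, OPC, Astro, Tany and neurons, and any called with or without the block. The genes, lists and tests were chosen with earlier results of these data known.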

Additional observations from a re-analysis of the deposited data

Results flagged for a closer look

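In all 3 values below, 1 normal mouse lay far from the others of its group, by a ratio of gap to range above Dixon's 95% critical value. 17 groups of mice were looked at, and chance flags about 1 in 20 where groups are not picked by their values. These groups were the named genes and further chosen ones, and the flags of Fdps and Fdft1 share 1 mouse. The rate is therefore only a rough guide here. Srebf1 in MO was 85.79 CPM in normal replicate 3, and the other 4 normal mice had 50.4 to 59.4 CPM. This mouse has libraries of the low Gapdh kind only. Fdps in neurons was 266.1 CPM in normal replicate 2, against 81.1 to 93.8 CPM in the other 3 normal mice, and Fdft1 in neurons was 240.2 CPM in the same mouse, against 98.3 to 110.5 CPM. That mouse gave 41 neurons and a library of the high Gapdh kind only. The fitted log2 ratios in neurons were -0.23 ± 0.34 for Fdps and -0.39 ± 0.29 for Fdft1 (both edgeR adjusted p = 1).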

How the results depend on the processing

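The count of genes of the list called in MO, 0, became 1 with batch as a replicate block, 2 with batches 1 and 2 only and 2 with the low Gapdh libraries. It was 0 in every fit with feeding state alone that left out a mouse. Fits with the block that left out a mouse were run only for normal replicates 3 and 4 and food-deprived replicates 1 and 2. Each leaves the contrast to 1 mouse of each state, so their calls are not counted here. These fits, the high Gapdh fits and the levels without 1 mouse were chosen after seeing the data. All other classes and both differences between classes stayed at 0 under every alternative run. The median log2 ratio of the list in MO (-0.13) was -0.25 by DESeq2, which tested 33 genes in place of 31, and -0.40 in the high Gapdh libraries. Without 1 mouse it ranged from -0.29 (without food-deprived replicate 1) to -0.11, and in IMO (-0.39) from -0.53 to -0.14 (without normal replicate 3), and in OPC (-0.12) from -0.15 to -0.04 (without normal replicate 3). In Astro (-0.26) it was -0.51 with the batch block and -0.47 with batches 1 and 2 only. The cause was not tested. The 16 named ratios kept their direction in all 273 alternative fits, though not their size. They were chosen by small p in the fit with feeding state alone. The alternatives refit the same counts, so the kept direction is no independent support. Fdft1 in MO, -0.78, ran from -0.97 to -0.06, Fdps in MO, -0.76, from -0.98 to -0.28, and Hsd17b7 in IMO, -0.90, from -1.38 to -0.54. Only Elovl6 and Ugt8a in MO passed the threshold in any alternative fit. Without food-deprived replicate 1 or 2 the ratio of Elovl6 in MO was nearest 0, and over the mice it ranged from -1.03 to -0.60. The fits with the batch block that left out a mouse cannot show whether the call of Elovl6 depends on a single mouse. The number of genes with their highest mean in MO, 8, was 5 with low Gapdh libraries and 5 with UMIs summed over mice. It was 5 to 9 when 1 mouse was left out (5 without normal replicate 1). The leading class was kept by 25 of the 33 genes in low Gapdh libraries, by 27 with UMIs summed over mice and by 27 in normal mice only. With at least 50 cells per mouse, where IMO drops out and 10 classes remain, 19 genes kept it. The filter on low counts left 9 tested genes of the list in Micro and in Ependy, and IMO rests on 20 to 33 cells per mouse. Not run for too few mice were IMO and Ependy at 50 cells, the low Gapdh fits of IMO, Tany and Ependy, and the high Gapdh fits of IMO, Tany, Ependy and Micro.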
